A study of Mus musculus with 6 samples.

Results

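Leukocyte and macrophage genes were followed as a sign of immune cell RNA in cardiomyocytes (CMs) that had been sorted by FACS after overexpression of SRF (serum response factor, a transcription factor of muscle genes). The list named 34 symbols, of which Emr1 and Adgre1 are one gene, so 33 genes of the 23337 in the deposited table were described. They fall by role into 8 pan-leukocyte genes, 14 macrophage genes, 3 subunit genes of complement C1q, the monocyte homing receptor Ccr2, 3 genes of MHC class II antigen presentation, 2 lymphocyte genes and 2 neutrophil genes. They were chosen by name. Their levels in these libraries were not part of the rule, but earlier results of these data were known when they were chosen.

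All mice were wildtype and were injected at P1 (postnatal day 1) with 5e8 vg per g of an adeno-associated virus, and GFP+ cells were collected at P14 by retrograde collagenase perfusion and FACS. In the SRF-OE group the virus was AAV9-cTNT-SRF-2A-GFP, which carries SRF and GFP. In the GFP group it was AAV9-cTNT-GFP, which carries GFP alone. The cTNT (cardiac troponin T) promoter drives the transgene in CMs, so sorting on GFP selects transduced CMs. Each group has 3 labelled libraries, but under the header of SRF-OE replicate 1 the table lists gene lengths, so 5 libraries with counts were analysed here, replicates 2 and 3 of SRF-OE and all 3 replicates of GFP. In bulk RNA, fewer cells of a type and less RNA per cell cannot be told apart.

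Heart muscle holds resident macrophages, which carry the growth factor receptor Csf1r, the scavenger receptors Mrc1 and Cd163 and the chemokine receptor Cx3cr1, and which make complement C1q. Pan-leukocyte genes such as Ptprc (CD45) are shared by blood-derived lineages, while MHC class II is carried mainly by dendritic cells, B cells and a subset of macrophages. Class II molecules present peptides to helper T cells, with Cd74 as the chaperone of the H2-Aa and H2-Ab1 chains, and their genes are switched on by the coactivator Ciita acting at paired promoter boxes named X and Y.

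Promoter windows of 250 bases before the RefSeq transcription start (build GRCm38.p6) were read for 24 of the 33 genes. They were searched on both strands for GAGGAA, a core bound by the myeloid ETS factor PU.1 (the product of Spi1), and for boxes of class II promoters. GAGGAA was found in at least 1 window of 15 of the 24 genes, against 23.3% of 32851 windows of all genes. Tyrobp, C1qa, Itgb2, Spi1, Adgre1, Csf1r, Cd14, Cd74 and H2-Ab1 were not searched here. The letters CTGATTGG of the Y box were in 3.83% of all windows and in 1 of the 24 genes, H2-Aa, the class II gene among them. The letters TGACGTCA of the X2 box were in 1.55% of all windows and again in H2-Aa alone among the 24. CCAAT, which lies inside the Y box on its other strand, was in 33.8% of windows and in 9 of the 24 genes. The X box core was in 4.29% of windows, and Coro1a and Fcgr3 were the members that held it. The windows shown are those of C1qb, Pf4 and Cd68, which are C1q and macrophage genes with GAGGAA, and of H2-Aa, the class II gene searched. Of the macrophage genes searched, Lyz2, Lyz1, Cx3cr1 and Cd163 held no GAGGAA, while the lymphocyte genes Cd3e and Cd79a did. Capitals mark GAGGAA or its other strand in the first 3 sequences, and the X2 and Y boxes in H2-Aa.
C1qb: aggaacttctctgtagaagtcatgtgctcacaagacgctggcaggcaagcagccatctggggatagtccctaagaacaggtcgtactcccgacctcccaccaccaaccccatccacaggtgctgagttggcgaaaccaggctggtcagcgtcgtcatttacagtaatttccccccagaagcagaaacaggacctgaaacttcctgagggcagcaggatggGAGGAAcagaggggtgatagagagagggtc
Pf4: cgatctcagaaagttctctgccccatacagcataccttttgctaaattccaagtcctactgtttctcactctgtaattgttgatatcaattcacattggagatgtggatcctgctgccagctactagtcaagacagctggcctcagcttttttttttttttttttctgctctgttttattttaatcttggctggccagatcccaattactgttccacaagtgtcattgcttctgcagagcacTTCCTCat
Cd68: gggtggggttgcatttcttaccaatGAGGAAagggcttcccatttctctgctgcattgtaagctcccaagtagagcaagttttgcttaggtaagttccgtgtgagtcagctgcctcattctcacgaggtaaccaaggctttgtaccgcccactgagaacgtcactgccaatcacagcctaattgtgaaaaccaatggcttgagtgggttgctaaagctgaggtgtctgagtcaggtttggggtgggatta
H2-Aa: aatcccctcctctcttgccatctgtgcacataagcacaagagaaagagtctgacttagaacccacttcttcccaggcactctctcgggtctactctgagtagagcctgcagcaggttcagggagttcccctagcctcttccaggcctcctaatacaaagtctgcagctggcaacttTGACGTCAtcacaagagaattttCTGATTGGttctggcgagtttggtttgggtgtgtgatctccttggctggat
These windows lie at chr4:136886201-136886450 on the minus strand for C1qb, chr5:90772185-90772434 on the plus strand for Pf4, chr11:69666171-69666420 on the minus strand for Cd68 and chr17:34287824-34288073 on the minus strand for H2-Aa. In H2-Aa the X2 letters run from base -74 to -67 and the Y letters from -51 to -44, counted back from the start. In C1qb GAGGAA runs from -30 to -25. A match in these letters is a description of the window and not a measured binding site.

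Total counts per library ran from 14137433 to 23159631. The sorted cells carried the RNA of CMs, with the CM myosin gene Myh6 at 13667 to 20026 TPM (counts per gene length, with lengths from the length column, scaled to 1 common total per library). One library went against its label. Srf stood at 360 and 748 CPM (counts over library size, scaled with TMM factors) in SRF-OE replicates 2 and 3, against 67.2 and 85.02 CPM in GFP replicates 2 and 3, but at 338 CPM in the library labelled GFP1. The table sets 6 library names over 1 column of lengths and 5 columns of counts. Whether the names are displaced by 1 column, in which case that library would be of the SRF-OE group, was not settled here. It keeps its label in what follows, and the main comparisons are given with and without it. The labels name replicates but not the animals behind them, so p-values measure the spread between these libraries.

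Leukocyte RNA was a trace in every library, and its amount differed more within each group than between the group means. The 33 genes together took 1426 counts in SRF-OE replicate 2, 842 in SRF-OE replicate 3, 1401 in the library labelled GFP1, 677 in GFP replicate 2 and 334 in GFP replicate 3. As a share of all counts this was 0.00895% and 0.00395% in SRF-OE, 0.00674% in the library labelled GFP1, and 0.00292% and 0.00236% in GFP replicates 2 and 3. SRF-OE replicate 2 and the library labelled GFP1 were the high libraries, and the groups overlapped. Per length, the summed level ran from 30.5 to 125 TPM.

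After scaling, the summed level of the 33 genes was 82.3 CPM in SRF-OE replicate 2, 36.8 CPM in SRF-OE replicate 3, 66.5 CPM in the library labelled GFP1, 31.0 CPM in GFP replicate 2 and 26.3 CPM in replicate 3 of GFP. The SRF-OE mean was 59.6 ± 32.2 CPM (SD, n = 2), and the GFP mean was 41.3 ± 22.0 CPM (SD, n = 3), a difference smaller than the spread in either group. Without the library labelled GFP1 the GFP mean was 28.7 ± 3.32 CPM (SD, n = 2), below both SRF-OE libraries. SRF-OE replicate 2 stood 2.24 times above SRF-OE replicate 3, and the library labelled GFP1 stood 2.32 times above the mean of the other GFP libraries. The ratio of the means was 1.44 with 5 libraries, 2.08 without the library labelled GFP1 and 0.890 without SRF-OE replicate 2. An exact permutation test of 1 summed value cannot go below p = 0.1 with 2 against 3 libraries, so the sums were not tested.

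The split within groups ran through most members. Of the 26 members that passed edgeR's filter on low counts, 23 (88.5%) were higher in replicate 2 than in replicate 3 of SRF-OE, where 49.8% of all 13754 genes tested were. The library labelled GFP1 exceeded both other GFP libraries for 20 of the 26 (76.9%), where 40.5% of all genes tested did. Over all 33 genes these counts were 26 and 23. SRF-OE replicate 2 held the highest value of 16 of the 33 genes and the library labelled GFP1 that of 10.

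**Figure D1:**
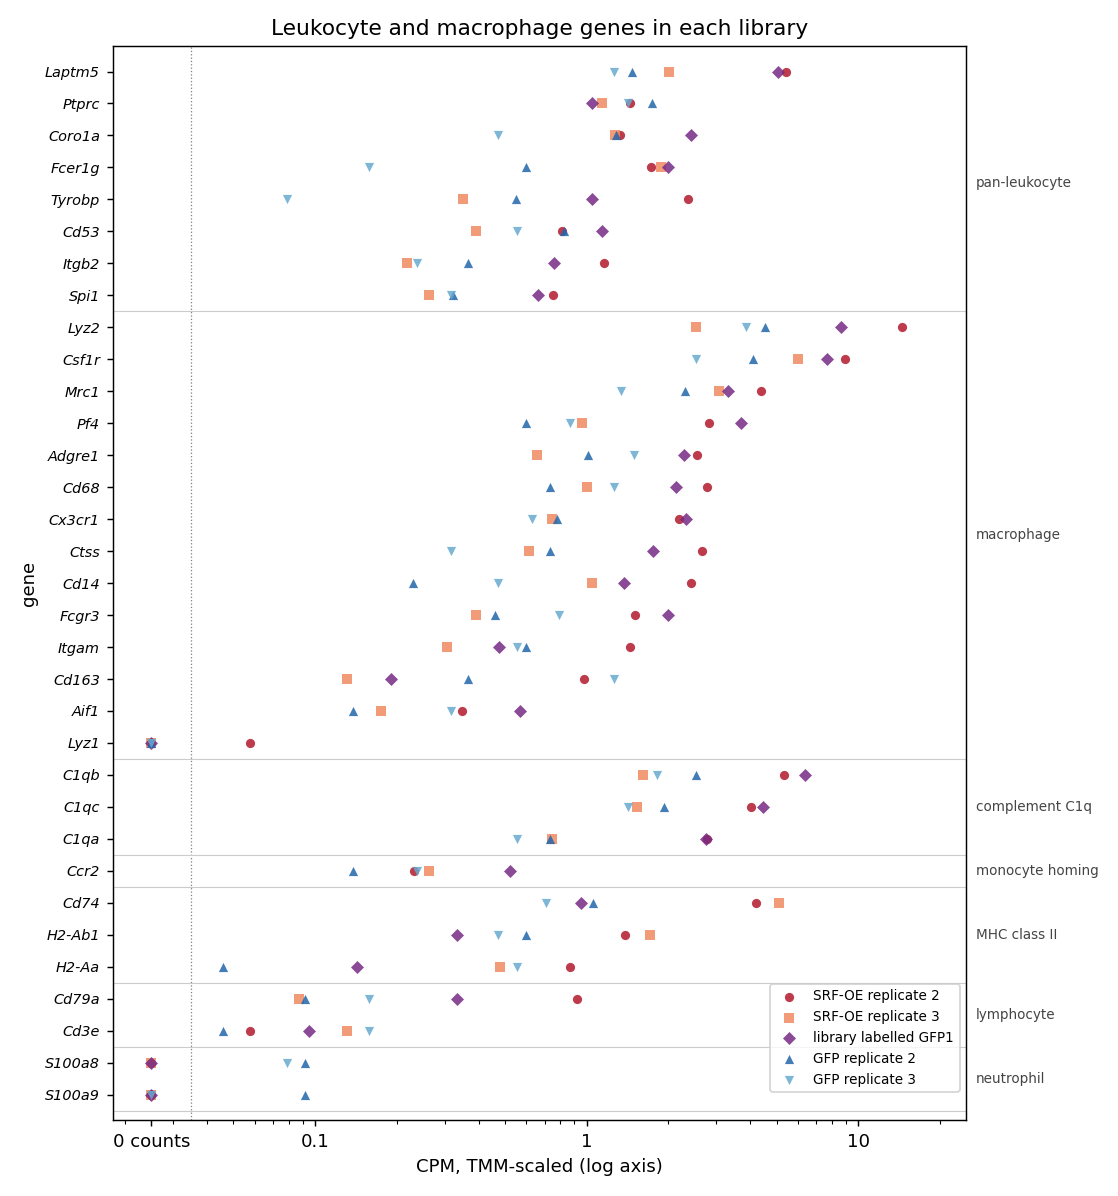
CPM (TMM-scaled, log axis) of each of the 33 genes in each of the 5 libraries, 1 symbol per library, with genes grouped by role and zero counts drawn at the left of the dotted line. SRF-OE replicate 2 (circles) and the library labelled GFP1 (diamonds) lie to the right for most macrophage and C1q genes, while for Cd74 and H2-Ab1 the SRF-OE libraries (circles and squares) lie to the right of all 3 GFP libraries.

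Among the pan-leukocyte genes, Laptm5, a lysosomal membrane protein of blood cells, took the most counts, and Fcer1g, an adaptor of Fc receptors, had the highest mean level per length at 3.88 TPM. Laptm5 was at 5.43 and 2.01 CPM in SRF-OE replicates 2 and 3, 5.08 CPM in the library labelled GFP1, and 1.47 and 1.26 CPM in GFP replicates 2 and 3. The groups overlapped through the library labelled GFP1, and without it both SRF-OE libraries were higher. Its log2 fold change was 0.49 (adjusted p = 0.76, SE 0.71) with 5 libraries and 1.43 (adjusted p = 0.16, SE 0.55) without that library, both from the quasi-likelihood test of edgeR with Benjamini-Hochberg adjustment over all genes tested. SE stands for the standard error of the fitted log2 fold change.

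Fcer1g did not follow the split between the SRF-OE libraries. It was at 1.73 and 1.88 CPM in SRF-OE replicates 2 and 3, 1.99 CPM in the library labelled GFP1, 0.596 CPM in GFP replicate 2 and 0.158 CPM in replicate 3 of GFP. SRF-OE and the library labelled GFP1 were thus alike, and the other GFP libraries lower. Its log2 fold change was 2.13 without the library labelled GFP1 (adjusted p = 0.091 from edgeR, SE 0.61), against 0.92 (SE 0.81) with it. Tyrobp, the partner adaptor of myeloid receptors, was instead at 2.37 CPM in SRF-OE replicate 2, 0.349 CPM in SRF-OE replicate 3, 1.04 CPM in the library labelled GFP1, 0.550 CPM in GFP replicate 2 and 0.0789 CPM, a single count, in GFP replicate 3. Its highest and lowest values lay in opposite groups, and SRF-OE replicate 3 lay below GFP replicate 2.

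Ptprc, the phosphatase CD45 that defines leukocytes, was the steadiest of the 8. It was at 1.44 and 1.14 CPM in SRF-OE replicates 2 and 3, 1.04 CPM in the library labelled GFP1, and 1.74 and 1.42 CPM in GFP replicates 2 and 3. It was highest in GFP replicate 2 and lowest in the library labelled GFP1, the reverse of most members. Per length it was at 0.352 to 0.562 TPM.

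The actin regulator Coro1a, the tetraspanin Cd53, the integrin chain Itgb2 and the transcription factor Spi1 (listed as Sfpi1) ran from 0.218 CPM (Itgb2 in SRF-OE replicate 3) to 2.42 CPM (Coro1a in the library labelled GFP1). Spi1 was at 0.751 and 0.262 CPM in SRF-OE, 0.665 CPM in the library labelled GFP1, and 0.321 and 0.315 CPM in GFP replicates 2 and 3, so its order followed Laptm5 except that SRF-OE replicate 3 was the lowest. The log2 fold change of Cd53 was -0.52 (SE 0.57), the lowest among the members tested with 5 libraries, and -0.25 (SE 0.61) without the library labelled GFP1. Coro1a shares exon bases with Bola2 on the other strand, and the library kit does not mark strand. Bola2 took more counts, at 17.6 to 24.2 CPM, so part of the Coro1a counts is uncertain.

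Macrophage genes gave the largest share of the leukocyte counts, and Lyz2 led them. Their summed level was 47.5 CPM in SRF-OE replicate 2, 17.6 CPM in SRF-OE replicate 3, 36.4 CPM in the library labelled GFP1, 16.6 CPM in GFP replicate 2 and 15.7 CPM in replicate 3 of GFP. SRF-OE replicate 3 was thus near the low GFP libraries and not near its own replicate. Every one of the 14 genes was higher in replicate 2 than in replicate 3 of SRF-OE.

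Lyz2, the lysozyme of myeloid cells, had the highest mean level per length of all 33 genes, at 12.7 TPM. It was at 14.4 and 2.53 CPM in SRF-OE replicates 2 and 3, 8.64 CPM in the library labelled GFP1, and 4.54 and 3.86 CPM in GFP replicates 2 and 3. The SRF-OE libraries were the highest and the lowest of all 5, 5.70 times apart. Its log2 fold change was 0.56 (adjusted p = 0.72 from edgeR, SE 0.70) and 1.00 (adjusted p = 0.42, SE 0.75) without the library labelled GFP1. Its neighbour Lyz1, the lysozyme of intestinal Paneth cells, had 1 count in SRF-OE replicate 2 and 0 counts elsewhere. For a count of 0 the exact 95% Poisson interval reached up to 0.161 to 0.291 CPM in these 4 libraries, an interval for counting error only. Lyz1 and Lyz2 share 15.4% of the 50-base words of Lyz2, so reads there could be assigned to either.

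Csf1r, the receptor of the growth factors Csf1 and Il34 on which macrophages depend, showed a smaller split. It was at 8.95 and 5.98 CPM in SRF-OE replicates 2 and 3, 7.65 CPM in the library labelled GFP1, and 4.08 and 2.52 CPM in GFP replicates 2 and 3. Both SRF-OE libraries were above GFP replicates 2 and 3, and the library labelled GFP1 lay between the SRF-OE values. The log2 fold change was 0.64 (adjusted p = 0.53 from edgeR, SE 0.46) and 1.16 (adjusted p = 0.10, SE 0.36) without the library labelled GFP1. Exon bases of Csf1r overlap Hmgxb3 on the other strand, a gene at 44.3 to 57.2 CPM, so reads from them cannot be told apart there.

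Mrc1, the mannose receptor of resident macrophages, ran in the same order as Csf1r, at 4.39 and 3.06 CPM in SRF-OE, 3.32 CPM in the library labelled GFP1, and 2.29 and 1.34 CPM in GFP replicates 2 and 3. Cd14, the coreceptor for bacterial lipopolysaccharide, was at 2.43 and 1.05 CPM in SRF-OE, 1.38 CPM in the library labelled GFP1, and 0.229 and 0.473 CPM in GFP replicates 2 and 3. For both genes the low libraries were GFP replicates 2 and 3. The log2 fold change of Cd14 was 1.28 (adjusted p = 0.45 from edgeR, SE 0.77) with 5 libraries and 2.36 (adjusted p = 0.094, SE 0.69) without the library labelled GFP1. That of Mrc1 was 0.66 (adjusted p = 0.48 from edgeR, SE 0.43) and 1.01 (adjusted p = 0.17, SE 0.41).

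Pf4, a chemokine made by platelets and also by resident macrophages, was at 2.83 and 0.961 CPM in SRF-OE, 3.70 CPM in the library labelled GFP1, and 0.596 and 0.868 CPM in GFP replicates 2 and 3. The library labelled GFP1 stood 5.06 times above the mean of the other GFP libraries. Cx3cr1, the fractalkine receptor, followed with 2.19 and 0.743 CPM in SRF-OE, 2.33 CPM in the library labelled GFP1, and 0.779 and 0.631 CPM in GFP replicates 2 and 3. For both, the counting interval of SRF-OE replicate 3 overlapped those of GFP replicates 2 and 3, while the high libraries came from different groups. Cx3cr1 overlaps the gene model Gm33858 on the other strand.

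Adgre1 (F4/80, listed as Emr1), the lysosomal protein Cd68, the protease Ctss and the Fc receptor Fcgr3 were also high in SRF-OE replicate 2 and the library labelled GFP1. Adgre1 was at 2.54 and 0.655 CPM in SRF-OE, 2.28 CPM in the library labelled GFP1, and 1.01 and 1.498 CPM in GFP replicates 2 and 3. SRF-OE replicate 3 was the lowest library for Adgre1, whose log2 fold change was -0.02 (SE 0.65), or 0.35 (SE 0.70) without the library labelled GFP1, and also for Fcgr3. Fcgr3 shares 9.58% of its 50-base words with the related receptor Fcgr2b.

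Cd163 and Itgam departed from the pattern. Cd163, the haemoglobin scavenger receptor, was at 0.982 and 0.131 CPM in SRF-OE, 0.190 CPM in the library labelled GFP1, and 0.367 and 1.26 CPM in GFP replicates 2 and 3, so the library labelled GFP1 was low and GFP replicate 3 the highest. Itgam (CD11b) was at 1.44 and 0.306 CPM in SRF-OE and between 0.475 and 0.596 CPM in all 3 GFP libraries. Itgam shares 66.3% of its 50-base words with the overlapping gene model Gm49368, so its counts are uncertain. Aif1, an actin-binding protein of macrophages, had 3 to 12 counts per library and was not tested.

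The genes of complement C1q, the recognition molecule of the classical pathway, were high and low in the same libraries. They lie side by side on the minus strand of chromosome 4, C1qb at chr4:136880129-136886187, C1qc at chr4:136889804-136893065 and C1qa at chr4:136895917-136898803 (GRCm38). Together they were at 12.1 CPM in SRF-OE replicate 2, 3.89 CPM in SRF-OE replicate 3, 13.6 CPM in the library labelled GFP1, 5.18 CPM in GFP replicate 2 and 3.79 CPM in replicate 3 of GFP. The library labelled GFP1 was the highest and stood 3.03 times above the mean of the other GFP libraries.

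C1qb alone was at 5.31 and 1.62 CPM in SRF-OE, 6.36 CPM in the library labelled GFP1, and 2.52 and 1.81 CPM in GFP replicates 2 and 3. SRF-OE replicate 3 was the lowest library for C1qb, below all GFP libraries. The share of C1q counts that fell on C1qb stayed between 41.6% and 48.7%, and that on C1qc between 32.9% and 39.3%. C1qa took the rest, at 14.2% to 22.9%. The log2 fold changes with 5 libraries were 0.33 (SE 0.84) for C1qa, -0.07 (SE 0.69) for C1qb and 0.07 (SE 0.62) for C1qc. They were 1.40 (SE 0.73), 0.65 (SE 0.60) and 0.71 (SE 0.55) without the library labelled GFP1. None was called in either fit, with adjusted p of 0.26 to 0.97 from edgeR.

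The 3 MHC class II genes of the list did not follow that order. Cd74, the invariant chain, and H2-Ab1, the beta chain of the class II molecule I-A, were higher in both SRF-OE libraries than in all 3 GFP libraries, the library labelled GFP1 included. They were the only 2 of the 26 members tested whose groups did not overlap. That is a smaller share than the 16.1% of all genes tested that lay higher in this way. Summed with H2-Aa they were at 6.47 and 7.30 CPM in SRF-OE replicates 2 and 3, 1.42 CPM in the library labelled GFP1, and 1.70 and 1.74 CPM in GFP replicates 2 and 3. The SRF-OE mean was 6.88 ± 0.585 CPM (SD, n = 2), and the GFP mean was 1.62 ± 0.169 CPM (SD, n = 3). Were the library labelled GFP1 of the SRF-OE group, which was not settled, neither Cd74 nor H2-Ab1 would separate the groups. In that library Cd74 was at 0.950 CPM, below the 1.05 CPM of GFP replicate 2. H2-Ab1 was at 0.332 CPM there, its lowest value. Laptm5, Fcer1g, Csf1r, Cd14, Mrc1, Pf4 and C1qa would instead lie higher in SRF-OE without overlap. The share of all genes that would do so in that grouping was not computed, so no trait of leukocyte genes can be read from this. With the library labelled GFP1 left out, the share of all genes tested was 30.8%.

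Cd74 was at 4.22 CPM in SRF-OE replicate 2 (73 counts, exact 95% Poisson interval 3.30 to 5.30 CPM) and 5.11 CPM in SRF-OE replicate 3 (117 counts, 4.23 to 6.13 CPM). It was at 0.950 CPM in the library labelled GFP1 (20 counts, 0.580 to 1.47 CPM), 1.05 CPM in GFP replicate 2 (23 counts, 0.668 to 1.58 CPM) and 0.710 CPM in replicate 3 of GFP (9 counts, 0.325 to 1.35 CPM). No interval of an SRF-OE library met one of a GFP library, and SRF-OE replicate 3, low for most macrophage genes, was the highest for Cd74. Its log2 fold change was 2.34 (adjusted p = 0.35 from edgeR, SE 0.33) with 5 libraries. Without the library labelled GFP1 it was 2.37 (SE 0.38) and passed the cutoff of 0.05, with an adjusted p of 0.048 from edgeR. That call was lost without GFP replicate 2 (adjusted p = 0.23 from edgeR), without GFP replicate 3 (0.27) and with upper quartile scaling (0.052).

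H2-Ab1 was at 1.39 and 1.70 CPM in SRF-OE replicates 2 and 3 (24 and 39 counts), 0.332 CPM in the library labelled GFP1 (7 counts), and 0.596 and 0.473 CPM in GFP replicates 2 and 3 (13 and 6 counts). Again both SRF-OE libraries were above all 3 GFP libraries, and SRF-OE replicate 3 was the highest. The log2 fold change was 1.71 (adjusted p = 0.35 from edgeR, SE 0.45) and 1.51 (adjusted p = 0.10, SE 0.47) without the library labelled GFP1, so it was not called in either fit. H2-Aa, the alpha chain, had 15 and 11 counts in SRF-OE and 3, 1 and 7 in GFP, or 0.866 and 0.481 CPM against 0.142, 0.0458 and 0.552 CPM. GFP replicate 3 lay between the SRF-OE libraries, so its groups overlapped.

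The class II sum of Cd74, H2-Ab1 and H2-Aa did not follow the macrophage level. Cd74 was most of it in SRF-OE, at 4.22 of 6.47 CPM in replicate 2 and 5.11 of 7.30 CPM in replicate 3. The class II chain gene H2-Eb1, described below, is not in this sum, and its groups overlapped. The class II sum as a percentage of the macrophage sum was 13.6% in SRF-OE replicate 2 and 41.4% in SRF-OE replicate 3. It was 3.91% in the library labelled GFP1, 10.2% in GFP replicate 2 and 11.1% in GFP replicate 3. Its highest value was in SRF-OE replicate 3 and its lowest in the library labelled GFP1, with SRF-OE replicate 2 only a little above GFP replicates 2 and 3. Against C1q the class II sum was 53.3% and 188% in SRF-OE, 10.5% in the library labelled GFP1, and 32.7% and 45.8% in GFP replicates 2 and 3.

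**Figure D2:**
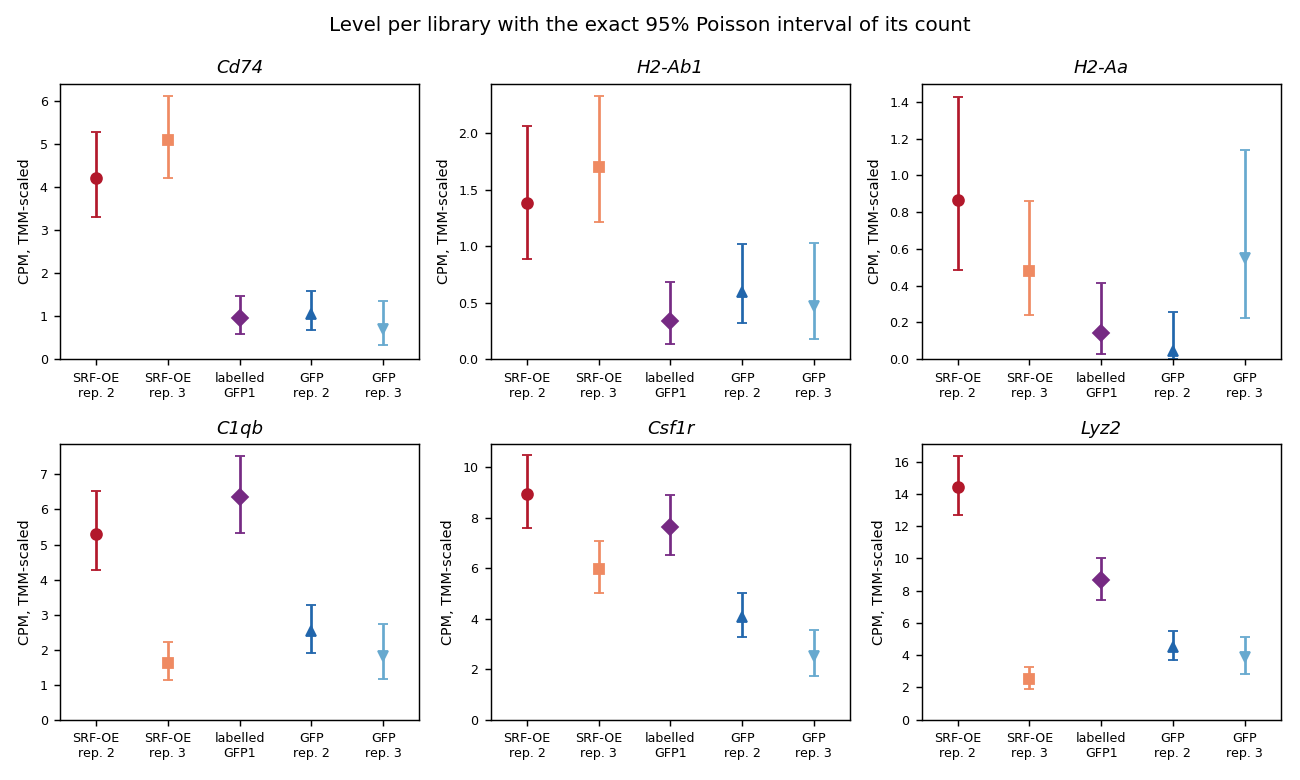
CPM (TMM-scaled, linear axes from 0) of 3 class II genes in the upper row and of C1qb, Csf1r and Lyz2 in the lower row, 1 point per library with the exact 95% Poisson interval of its count. For Cd74 the intervals of the SRF-OE libraries begin at 3.30 CPM and those of the GFP libraries end at 1.58 CPM, while C1qb and Lyz2 are high in SRF-OE replicate 2 and the library labelled GFP1.

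Other genes of class II presentation came from a list of 11 genes for antigen presentation and dendritic cells. H2-Eb1, the beta chain of the class II molecule I-E, was at 1.73 and 1.35 CPM in SRF-OE, 1.95 CPM in the library labelled GFP1, and 1.47 and 1.58 CPM in GFP replicates 2 and 3. Its groups overlapped, with a log2 fold change of -0.11 (adjusted p = 0.89 from edgeR, SE 0.36) and 0.02 (adjusted p = 0.98, SE 0.40) without the library labelled GFP1. Ciita, the coactivator of class II genes, was at 1.79 and 1.31 CPM in SRF-OE, 1.19 CPM in the library labelled GFP1, and 0.825 and 0.789 CPM in GFP replicates 2 and 3. Both SRF-OE libraries were above the GFP libraries, by a log2 fold change of 0.71 (adjusted p = 0.44 from edgeR, SE 0.41) and 0.93 (adjusted p = 0.23, SE 0.45) without the library labelled GFP1. From these 11 genes 5 were tested in each edgeR fit and 0 were called, and 0 had an unadjusted p under 0.05.

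Lymphocyte, neutrophil and monocyte homing genes were at or near the floor. Cd3e, a chain of the T cell receptor complex, had 1 and 3 counts in SRF-OE and 2, 1 and 2 in GFP. Cd79a, a chain of the B cell receptor complex, had 16 and 2 counts in SRF-OE, 7 in the library labelled GFP1, and 2 each in GFP replicates 2 and 3. The 16 counts in SRF-OE replicate 2, or 0.924 CPM (exact 95% Poisson interval 0.528 to 1.5003 CPM), were the highest lymphocyte value. The neutrophil calprotectin genes S100a8 and S100a9 had 0 counts in both SRF-OE libraries and in the library labelled GFP1, and at most 2 counts in the others. Ccr2, which marks monocyte-derived macrophages, had 4 and 6 counts in SRF-OE, 11 in the library labelled GFP1, and 3 each in GFP replicates 2 and 3. None of these genes passed the filter on low counts, so none was tested.

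Across the members, the comparison of SRF-OE with GFP called no gene with the 5 libraries as labelled. Of the 26 members tested, 0 were higher and 0 lower at an adjusted p under 0.05 from edgeR, where 0% of the 13754 genes tested were called in each direction. DESeq2 gave none of the 33 genes an adjusted p with these libraries, because of its independent filtering. Cd74 and H2-Ab1 had an unadjusted p under 0.05, both higher, or 2 of 26, where 6.35% of all genes tested did. None of the 26 had such a p in the lower direction, where 7.59% of all genes tested did. No member lay lower without overlap, where 17.3% of all genes tested did. The median log2 fold change of the 26 was 0.46, beside 0.030 over all genes tested, and 19 of 26 were positive, beside 53.3%. The members left untested were Aif1, Lyz1, Ccr2, Cd3e, Cd79a, S100a8 and S100a9.

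Without the library labelled GFP1, 22 members were tested and Cd74 alone was called, higher, where 1.98% of 13397 genes were called higher and 0.97% lower. At an unadjusted p under 0.05, 7 members were higher, Laptm5, Fcer1g, Csf1r, Cd14, Mrc1, Cd74 and H2-Ab1, where 14.4% of all genes tested were. In 9 of the 22 both SRF-OE libraries lay above GFP replicates 2 and 3, where 30.8% of all genes tested did, and in 0 of the 22 both lay below, where 30.2% did. The median log2 fold change was 1.00, beside 0.035 over all genes tested, and 19 of 22 were positive, beside 53.2%. These medians turned on SRF-OE replicate 2, without which they were -0.74 with the library labelled GFP1 and 0.10 without it.

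**Figure D3:**
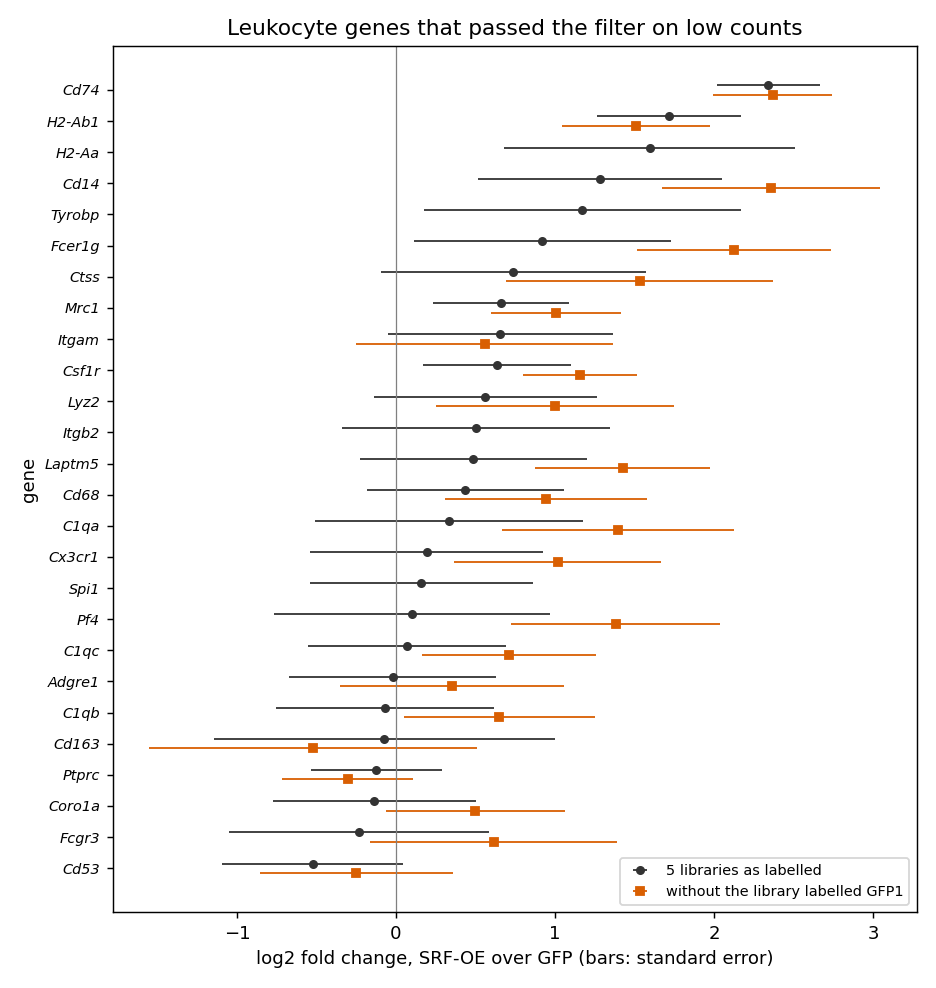
Log2 fold change of SRF-OE over GFP (horizontal axis, bars show the standard error) for the 26 members that passed the filter on low counts, with 5 libraries (circles) and without the library labelled GFP1 (squares, 22 members). Cd74 and H2-Ab1 keep their place in both fits, while Laptm5, Fcer1g, Cd14, Pf4 and C1qa shift to the right without that library.

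Lists of related genes, chosen for their role, gave few calls. Of 38 other macrophage and monocyte genes, 15 were tested with 5 libraries and 0 were called, and 11 were tested without the library labelled GFP1 and again 0 were called. Those with the highest CPM were Tlr4, the lipopolysaccharide receptor, at 26.7 and 45.6 CPM in SRF-OE and 13.0 to 28.7 CPM in GFP, and Stab1, a scavenger receptor also present on endothelium, at 23.2 and 9.48 CPM in SRF-OE and 10.2 to 21.8 CPM in GFP. Stab1 was high in SRF-OE replicate 2 and the library labelled GFP1, as Lyz2 was. Of 27 pan-leukocyte signalling genes, 18 and 12 were tested in the 2 fits and 0 were called. With 5 libraries, 3 of the 18 lay higher in SRF-OE without overlap, beside 16.1% of all genes tested. Lcp1, the leukocyte plastin, was at 13.4 and 5.98 CPM in SRF-OE, 12.2 CPM in the library labelled GFP1, and 5.00 and 5.21 CPM in GFP replicates 2 and 3, high in the same 2 libraries as Stab1. The kinase Syk was at 35.1 to 41.8 CPM in all 5 libraries.

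Of 19 genes of T, B and natural killer cells, 3 and 2 were tested and 0 were called. The kinase Blk was at 5.08 and 5.94 CPM in SRF-OE and 2.89 to 4.02 CPM in GFP. The T cell receptor chain Cd247 was at 0.751 and 0.612 CPM in SRF-OE and 0.158 to 0.475 CPM in GFP. With 5 libraries, all 3 genes tested lay higher in SRF-OE without overlap, beside 16.1% of all genes tested. None of 14 granulocyte and mast cell genes passed the filter. Of 8 platelet genes 3 and 2 were tested, and of 8 red cell genes 2 were tested in each fit, with 0 called in either list. The platelet integrin Itga2b was at 2.94 and 2.80 CPM in SRF-OE and 1.42 to 2.23 CPM in GFP. Gp1bb, a chain of the platelet receptor for von Willebrand factor, was at 0.982 and 0.874 CPM in SRF-OE and 0.550 to 0.855 CPM in GFP. Of the red cell genes, Alas2, the first enzyme of haem synthesis in red cells, was at 1.501 and 1.40 CPM in SRF-OE and 0.237 to 0.458 CPM in GFP, and the beta globin gene listed as Beta-s at 5.14 and 3.93 CPM and 0.285 to 3.15 CPM. Itga2b, Gp1bb, Alas2 and Beta-s were each higher in both SRF-OE libraries than in every GFP library, where 16.1% of all genes tested were, and none of them was called. The groups overlapped for Gp1ba, the other platelet gene tested with 5 libraries, at 0.577 and 0.481 CPM in SRF-OE and 0.458 to 0.665 CPM in GFP. Of the 8 red cell genes, 4 had 0 counts in all libraries, namely Hba-a1, Hba-a2, Hbb-b1 and Hbb-b2.

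Ligands of these receptors were also measured. Csf1, a ligand of Csf1r, was at 29.6 and 24.2 CPM in SRF-OE, 31.0 CPM in the library labelled GFP1, and 54.5 and 44.6 CPM in GFP replicates 2 and 3. It was lower in both SRF-OE libraries than in all GFP libraries, opposite in direction to Csf1r, with a log2 fold change of -0.69 (adjusted p = 0.36 from edgeR, SE 0.25) and -0.88 (adjusted p = 0.055, SE 0.17) without the library labelled GFP1. Cx3cl1, the ligand of Cx3cr1, was at 14.4 and 22.2 CPM in SRF-OE, 25.4 CPM in the library labelled GFP1, and 6.65 and 6.55 CPM in GFP replicates 2 and 3. The library labelled GFP1 was the highest, and without it Cx3cl1 was called, with a log2 fold change of 1.48 (adjusted p = 0.0499 from edgeR, SE 0.26), against 0.51 (adjusted p = 0.71, SE 0.62) with it. Cxcl12, the ligand with the highest CPM of the 16, was at 76.1 and 49.8 CPM in SRF-OE and 31.8 to 90.9 CPM in GFP. Cxcl10, a chemokine for T cells, was the ligand higher in both SRF-OE libraries than in all GFP libraries, at 1.04 and 0.830 CPM against 0.237, 0.0917 and 0.315 CPM, with a log2 fold change of 2.16 (adjusted p = 0.35 from edgeR, SE 0.62) and 2.32 (adjusted p = 0.11, SE 0.73) without the library labelled GFP1. Of the 16 ligands 9 and 7 were tested, and Cx3cl1 was the only one called in either fit.

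Markers of endothelial cells moved with the macrophage genes from library to library. The summed level of 15 endothelial genes was 1125 CPM in SRF-OE replicate 2, 447 CPM in SRF-OE replicate 3, 862 CPM in the library labelled GFP1, 479 CPM in GFP replicate 2 and 477 CPM in replicate 3 of GFP. All 15 were higher in replicate 2 than in replicate 3 of SRF-OE, and 14 were higher in the library labelled GFP1 than in both other GFP libraries. Kdr, a receptor of the growth factor VEGF, was at 181 and 70.0 CPM in SRF-OE, 162 CPM in the library labelled GFP1, and 80.7 and 89.0 CPM in GFP replicates 2 and 3. Cd34, a surface protein of endothelium, was at 138 and 54.8 CPM, 107 CPM, and 60.1 and 48.3 CPM in the same order. The 33 leukocyte genes amounted to 7.32%, 8.24%, 7.72%, 6.48% and 5.53% of the endothelial sum in the same order of libraries. That ratio was steadier than the leukocyte sum itself, whose highest value was 3.13 times its lowest, and the part of endothelial or other non-CM RNA in the leukocyte differences was not tested.

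The 12 fibroblast genes summed to 1076 and 670 CPM in SRF-OE, 658 CPM in the library labelled GFP1, and 472 and 409 CPM in GFP replicates 2 and 3. Of these, the collagen gene Col3a1 was at 462 and 219 CPM in SRF-OE and 175 to 223 CPM in GFP, and Gsn, which severs actin filaments, at 135 and 202 CPM in SRF-OE and 71.1 to 151 CPM in GFP. The 10 CM genes summed to 102253 and 92782 CPM in SRF-OE, 105365 CPM in the library labelled GFP1, and 133316 and 154709 CPM in GFP replicates 2 and 3. Myh6 was at 40490 and 44052 CPM in SRF-OE and 43585 to 68787 CPM in GFP, and the cardiac actin gene Actc1 at 20061 and 14720 CPM in SRF-OE and 20692 to 32158 CPM in GFP. The CM sum was thus lower in both SRF-OE libraries and in the library labelled GFP1 than in the other GFP libraries. Per CM sum the 33 genes amounted to 0.0805% and 0.0396% in SRF-OE, 0.0632% in the library labelled GFP1, and 0.0233% and 0.0170% in GFP replicates 2 and 3. None of the endothelial or CM genes was called in either fit. Ddr2 and Gsn of the fibroblast list were called higher without the library labelled GFP1, and of 10 smooth muscle and pericyte genes Tagln was called higher and Acta2 lower. Acta2, the smooth muscle actin gene, was at 530 and 371 CPM in SRF-OE, 462 CPM in the library labelled GFP1, and 1017 and 1462 CPM in GFP replicates 2 and 3, and the channel regulator Abcc9 at 260 to 393 CPM in all 5 libraries.

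**Figure D4:**
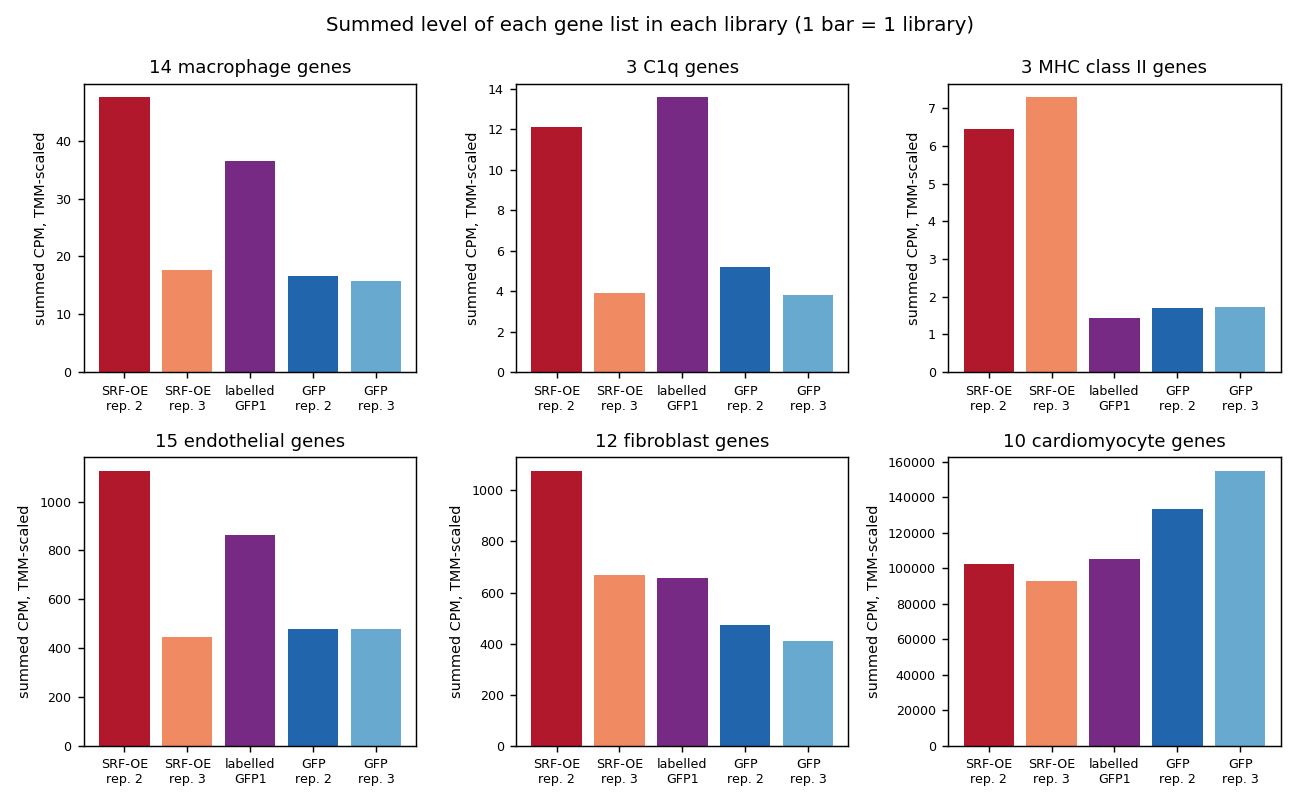
Summed CPM (TMM-scaled, axes from 0) of 6 gene lists, 1 bar per library with no error bar because each bar is a single library. Macrophage, C1q and endothelial sums are highest in SRF-OE replicate 2 and the library labelled GFP1. The class II sum of Cd74, H2-Ab1 and H2-Aa is 6.47 and 7.30 CPM in SRF-OE and 1.42 to 1.74 CPM in GFP.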

How the data were processed

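GFP+ CMs were sorted at P14 and their polyA RNA was sequenced after SMART-Seq v4 amplification and Nextera XT library preparation. Per the labels, base calling used CASAVA 1.8, and reads were aligned to mm10 with STAR 2.5.3a and counted with featureCounts of Subread 1.5.2. The authors deposited raw counts per gene in 1 table without normalization. Its columns were assigned to libraries by name, and 0 columns of counts were left unused. The deposited column headed as SRF-OE replicate 1 holds another kind of value, gene length, with 0 zeros and 73.8% of 20892 comparable genes within 5% of an annotated transcript or exon length. It served only for TPM. The tests were planned for every library with counts, and each library kept its labelled group whatever its Srf level. Settings for strand and multiply mapped reads are not given in the sources used here.

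Counts were filtered with filterByExpr, scaled with TMM factors and tested with the quasi-likelihood test of edgeR 4.0.16 in R 4.3.3, with Benjamini-Hochberg adjustment over all genes tested and a cutoff of 0.05. Intervals are exact 95% Poisson intervals and cover counting error only, and reads without molecular identifiers are not independent molecules. Every listed gene was named, and from each further list the 2 genes with the highest mean CPM; Csf1, Cx3cl1, Cxcl10 and genes called in the further lists were named after their values were seen. Members and lists were chosen with earlier results of these data known. Alternatives were another tool (DESeq2 1.42.0), other scalings (size factors of DESeq2, upper quartile), other filters (none, or at least 10 counts in every library), a block on replicate number, 1 library left out at a time, and other units of the summed level. Promoter windows came from RefSeq, and gene positions and overlaps from the GRCm38 annotation. The Srf knockout experiments described in the paper were not analysed here.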

Additional observations from a re-analysis of the deposited data

How the results depend on the processing

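Cd74 kept its direction under every alternative run, with log2 fold changes of 2.13 to 2.69, and H2-Ab1 likewise, with 1.34 to 1.96. With the 5 libraries as labelled, 0 leukocyte genes were called higher, and 0 to 1 when each GFP library was left out. With the replicate number as a block 1 was called (Cd74, adjusted p = 0.031 from edgeR). SRF-OE replicate 1 has no counts, so the group difference in the block fit comes from replicates 2 and 3 alone. Calls from the block are thus not calls from all 5 libraries. Over all genes tested, 0 were called higher and 0 lower with the 5 libraries, against 11 and 213 with DESeq2. These were 582 and 432 with the block, and 0 to 265 and 0 to 130 when each GFP library was left out. The median log2 fold change of the leukocyte genes was 0.46, and ran from -0.74 (without SRF-OE replicate 2) to 1.00 (without the library labelled GFP1) when each library was left out, and was 1.01 with the block. Without the library labelled GFP1, 1 leukocyte gene was called higher, against 0 with upper quartile scaling, 7 without a filter on low counts, 0 with at least 10 counts in every library, where Cd74 is not tested, and 0 to 9 when each library was left out. Over all genes, 265 higher and 130 lower became 853 and 832 with DESeq2, 88 and 9 with upper quartile scaling, 1660 and 1303 without a filter, 55 and 9 with at least 10 counts, 547 and 392 with the block, 0 to 1640 and 0 to 1638 when each library was left out, and 206 lower with DESeq2's size factors. The median of 1.00 then ran from 0.10 to 1.52. Whether replicate numbers pair the libraries could not be settled. With 5 libraries, the correlation across genes of deviations from the group mean was 0.372 for the libraries numbered 2 but -0.060 for those numbered 3. It was 0.215 without the library labelled GFP1, where 2 libraries per group make the values for numbers 2 and 3 equal by construction. A group left with 1 library is assumed to vary like the other group. The ratio of the summed level, SRF-OE over GFP, was 1.44, 2.08 without the library labelled GFP1 and 0.890, below 1, without SRF-OE replicate 2. The ratio thus lay on either side of 1, depending on the library left out. The spread between libraries comes from these same few libraries, so it cannot show whether such shifts are small.

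With 5 libraries the log2 fold change of Adgre1 changed sign to 0.036 with upper quartile scaling, and with the block it was 0.20 for Adgre1, 0.61 for Coro1a, 0.51 for Fcgr3 and 0.54 for C1qb, where the fit without these changes gave values below 0. Leaving out each library gave a range that crossed 0 for 18 genes with 5 libraries: -1.28 to 0.66 for Adgre1, -0.88 to 1.40 for C1qa, -1.16 to 0.65 for C1qb, -0.78 to 0.71 for C1qc, -2.07 to 0.77 for Cd163, -0.46 to 0.99 for Cd68, -0.51 to 0.50 for Coro1a, -0.65 to 1.53 for Ctss, -0.77 to 1.02 for Cx3cr1, -1.46 to 0.61 for Fcgr3, -0.81 to 1.40 for Itgam, -1.08 to 1.28 for Itgb2, -0.39 to 1.43 for Laptm5, -1.17 to 1.33 for Lyz2, -0.86 to 1.38 for Pf4, -0.30 to 0.075 for Ptprc, -0.74 to 0.75 for Spi1 and -0.73 to 1.99 for Tyrobp. Without the library labelled GFP1 it did so for 8 genes: -0.90 to 1.05 for Adgre1, -0.44 to 1.26 for C1qb, -0.15 to 1.24 for C1qc, -2.48 to 0.53 for Cd163, -0.83 to 0.19 for Cd53, -0.60 to 1.31 for Fcgr3, -0.90 to 1.31 for Itgam and -0.73 to 1.77 for Lyz2. The library labelled GFP1 adds nothing to the group difference in the block fit. Without that library the log2 fold changes were 0.35 for Adgre1, 0.50 for Coro1a, 0.61 for Fcgr3 and 0.65 for C1qb. The cause of the other shifts was not tested. Most leukocyte genes had under 100 counts in each library, and at this depth small changes are not detectable.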

Other observations

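Some leukocyte genes, most of them outside the list of 33, stood out in single libraries. They were picked with their values in view, each value is a count, and no test was run on them. In the library labelled GFP1, the mast cell protease genes Tpsb2 and Cma1 had 41 and 22 counts, against at most 1 and at most 3 in any other library, and Mcpt4 had 13 counts against at most 3. Cpa3, another mast cell protease, had 17 counts there, 10 in GFP replicate 2, 5 in SRF-OE replicate 2, 2 in GFP replicate 3 and 1 in SRF-OE replicate 3. Ms4a2, a chain of the mast cell IgE receptor, had 0 counts in the library labelled GFP1 and 2 to 5 in the others.

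SRF-OE replicate 3, which was low for most macrophage genes, held the most counts of several T cell genes. Lck, a kinase of T cells, had 30 counts there and 1 to 4 in the other libraries, Cd3d had 10 against 1 to 4, and Cd8a had 8 against 0 to 2. Cd3g had 8 against 0 to 1, and Cd4 had 12 against 0 to 7. Other T cell genes stood out little. Cd3e had 3 counts against 1 to 2, Cd2 had 2 against 0 to 2, Il7r had 9 against 4 to 8, and Cd247 had 14 against 2 to 13. Scaled to library size, Cd247 was higher in SRF-OE replicate 2, at 0.751 CPM against 0.612 CPM. Gzma, a protease of cytotoxic cells, had 6 counts there and 0 elsewhere, but Prf1 and Nkg7, also of cytotoxic cells, had 0 and 1 counts there and up to 4 and 3 elsewhere. Retnlg, a secreted protein of neutrophils, had 21 counts there and 0 to 2 elsewhere, while S100a8 and S100a9 had 0 counts in the same library. Ncf1, a subunit of the phagocyte oxidase, had 84 counts in SRF-OE replicate 3, 21 in SRF-OE replicate 2, 39 in the library labelled GFP1, 5 in GFP replicate 2 and 4 in GFP replicate 3.

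SRF-OE replicate 2 held the most counts of the B cell receptor genes Cd79a and Cd79b, at 16 and 15, against at most 7 and at most 4 in the other libraries. It also held 23 counts of the platelet tubulin gene Tubb1 and 12 of the platelet chemokine gene Ppbp, against at most 2 and at most 4 elsewhere. Of the other platelet genes Itga2b and Gp1bb had more counts in SRF-OE replicate 3, at 64 and 20 against 51 and 17. Scaled to library size they were instead slightly higher in SRF-OE replicate 2, at 2.94 and 0.982 CPM against 2.80 and 0.874 CPM. Gp1ba had 14 counts in the library labelled GFP1 against 10 in SRF-OE replicate 2.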
